A study of Canis lupus familiaris with 42 samples.

Results

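The ATF4 branch of the integrated stress response was followed in canine sarcomas through 9 genes, ATF4, DDIT3, ASNS, TRIB3, CHAC1, ATF3, SESN2, PSAT1 and PHGDH. They were chosen by name as known members of the pathway, at a time when earlier results of these data were known. All 9 were measured, among 15115 genes on the array. In the integrated stress response, kinases that sense misfolded protein, amino acid shortage, haem deficiency or double-stranded RNA phosphorylate the translation factor eIF2, which slows most protein synthesis while the transcription factor ATF4 is translated more. ATF4 then switches on genes for amino acid uptake and synthesis and for tRNA charging, together with regulators that end the response or lead towards cell death. Much of the control of ATF4 acts on its translation, which an RNA array does not measure.

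The arrays hold RNA of spontaneous sarcomas from dogs, sampled after the first hyperthermia session (21 arrays) and, in the same 21 tumours, before it with no treatment (21 arrays). Hyperthermia accompanied radiotherapy, and the series describes 22 tumours, of which 21 pairs were analysed here. The labels used here give neither the time of the second sample nor whether radiation came before it. No tumour was sampled a second time without treatment, so each change is the difference between a tumour's second and first sample. Whether any dog gave more than 1 tumour is not in the labels, so the p-values describe the spread over these 21 tumours only.

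Values are log2 levels after RMA, which removes background, brings the arrays to a common distribution and combines the probes of each probe set into 1 value. A difference of 1 is therefore a 2-fold difference. Array medians lay between 5.20 and 5.31, and no detection calls were used. The precision of a mean change depends on the number of tumours and on the spread of their changes. The 21 tumours are numbered 1 to 21, and 9 of them had high signal on the spike-in controls added before labelling (no array below 6.57), against 12 with low signal (no array above 5.29). These are called the spiked and the unspiked batch below, although no label names a batch. No tumour had its 2 arrays in different batches. The mean of 7 mesenchymal marker genes was high on every array (11.8 to 13.1 after treatment and 11.95 to 13.1 before). Markers of other cells moved too. The mean of 3 neutrophil markers (S100A8, S100A9, LCN2) was 0.86 ± 1.14 higher after treatment (SD, n = 21, higher in 16 tumours), and ran from 4.37 to 10.3 after and from 4.56 to 10.7 before. The mean of 5 macrophage markers was 0.46 ± 0.65 higher (14 tumours), running from 6.54 to 8.83 after and from 5.95 to 8.90 before, with MARCO higher and CSF1R lower. The mean of 4 leukocyte and T-cell markers was lower (−0.22 ± 0.32, higher in 5 tumours), with CD3E and CD3D called lower. The part of these shifts in the changes below was not tested. In bulk tissue, fewer cells of a type cannot be told apart from less RNA per cell.

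After hyperthermia 3 of the 9 genes rose and none fell, at a limma adjusted p under 0.05 over 42924 probe sets with the tumour as a block. These were ASNS, ATF3 and SESN2. The signal of ATF3 and of SESN2 was low, with 47.8% and 46.3% of probe sets at a lower mean level. Among all 15115 genes 4.02% rose and 3.13% fell by the same rule. The mean change was above 0 for all 9 members, with a median of 0.42, while over all genes the median change was 0.0069. A contrast between 3′ and 5′ control probe sets of actin and GAPDH, a sign of RNA breakdown, was 0.13 ± 0.44 higher after treatment (SD, n = 21). It was higher by over 0.5 in tumours 11, 16, 20 and 21, and in tumour 13 its change was −1.03. Without those 5 tumours SESN2 was the 1 member called. Tumours 13 and 15 stood apart in earlier work on these arrays, and without them 3 members and 10 of the 55 other pathway genes described below were called. The changes of the members differed greatly between tumours, and a few tumours carried most of their 2-fold rises.

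**Figure D1:**
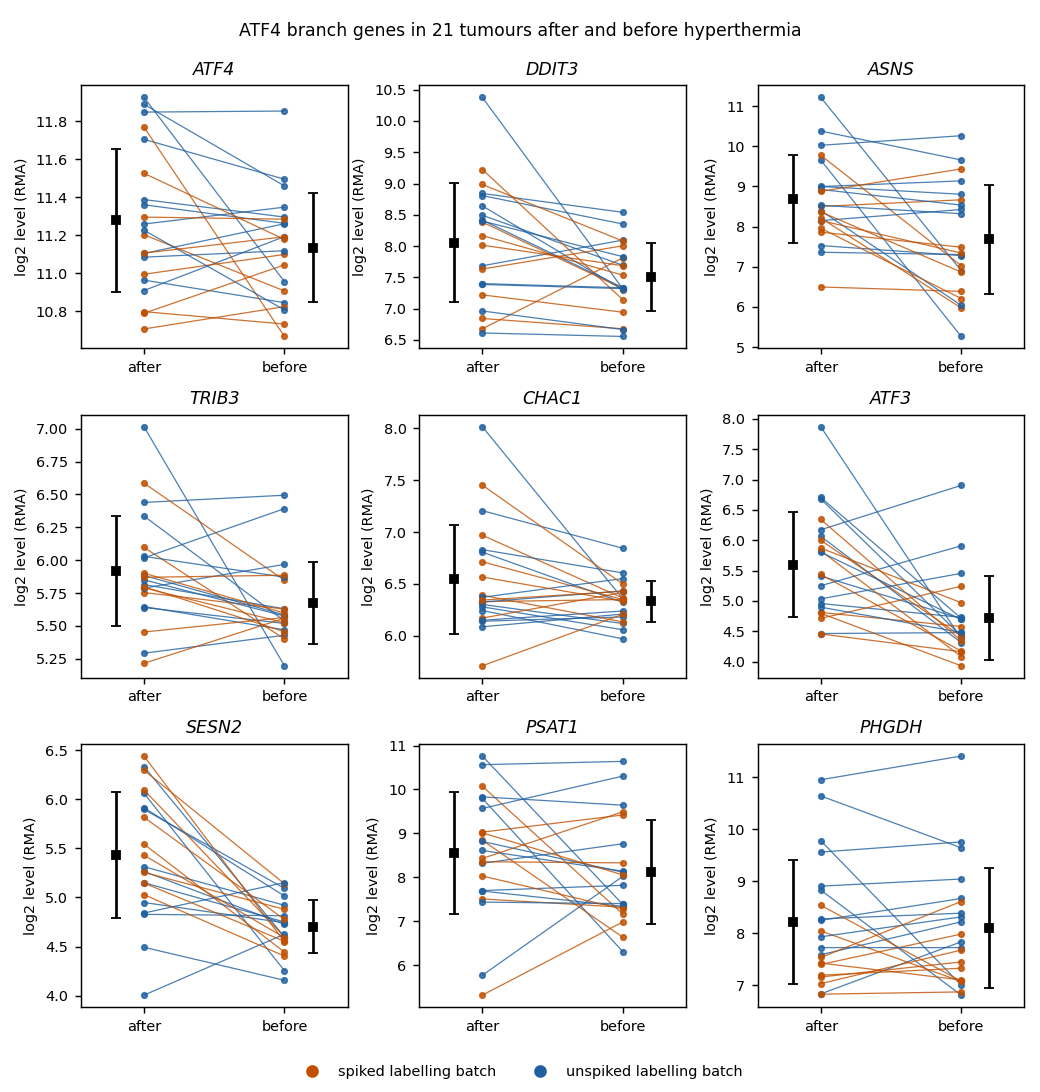
Level of each branch gene (log2) on the 21 arrays after and the 21 arrays before hyperthermia, 1 panel per gene, with lines joining the arrays of a tumour. SESN2 lay above its highest level before treatment (5.15) on 13 arrays after treatment, whereas PHGDH was lower after treatment in 14 of 21 tumours.

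ATF4, the transcription factor at the head of the branch, ran from 10.7 to 11.9 after treatment with a median of 11.2, and from 10.7 to 11.9 before treatment with a median of 11.2. The ranges overlapped almost fully, and 12 tumours were higher and 9 lower. The mean change was 0.14 ± 0.075 (SE, 95% confidence interval −0.011 to 0.30, adjusted p = 0.301), so a change of ATF4 RNA was not shown. Tumour 10 had the largest change of ATF4 (1.10), followed by tumour 1 (0.97).

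DDIT3, which encodes the transcription factor CHOP that is linked to cell death after prolonged stress, ran from 6.61 to 10.4 after treatment with a median of 8.17. Before treatment it ran from 6.55 to 8.54 with a median of 7.34. It was higher in 18 of 21 tumours, and 6 arrays after treatment lay above every array before it, yet its mean change of 0.55 ± 0.18 (95% confidence interval 0.19 to 0.92) missed the threshold (adjusted p = 0.0642). The change of single tumours ran from −1.13 in tumour 8 to 3.06 in tumour 1, an 8.35-fold difference.

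ATF3, a stress-induced factor of the same bZIP family that ATF4 and CHOP can switch on, ran from 4.46 to 7.87 after treatment with a median of 5.44. Before treatment it ran from 3.93 to 6.90 with a median of 4.48. The groups overlapped, but 16 tumours were higher and 9 were at least 2-fold higher, with none at least 2-fold lower. ATF3 rose by 0.88 ± 0.22 (95% confidence interval 0.43 to 1.33, 1.84-fold, adjusted p = 0.0179), and leaving out any single tumour kept the call. With the Wilcoxon signed-rank test the adjusted p was 0.0510.

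SESN2, which encodes sestrin 2, an inhibitor of the growth kinase mTORC1 when leucine is short, had the lowest adjusted p of the members. It ran from 4.005 to 6.44 after treatment with a median of 5.31, and from 4.16 to 5.15 before treatment with a median of 4.73. On 13 of 21 arrays after treatment it lay above its highest level before treatment, and 19 tumours were higher. SESN2 rose by 0.73 ± 0.13 (95% confidence interval 0.45 to 1.01, 1.66-fold, adjusted p = 0.00256). Its change was largest in tumour 8 (1.89), where DDIT3 was 1.13 lower, and lowest in tumour 17 (−0.62). SESN2 is also known as a target of p53.

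TRIB3, a pseudokinase that holds back ATF4 and CHOP, ran from 5.21 to 7.02 after treatment with a median of 5.85, and from 5.20 to 6.49 before treatment with a median of 5.57. The change of 0.24 ± 0.098 (95% confidence interval 0.040 to 0.45) was higher in 14 tumours and missed the threshold (adjusted p = 0.158). Only tumour 1 was at least 2-fold higher, by 1.82. CHAC1, an enzyme that breaks down glutathione, ran from 5.71 to 8.02 after treatment with a median of 6.34, and from 5.97 to 6.84 before treatment with a median of 6.35. Its change of 0.21 ± 0.095 was also not called (adjusted p = 0.213), with 12 tumours higher. A second probe set of CHAC1 changed by 0.49 ± 0.15 with 17 tumours higher, and it was not called either (adjusted p = 0.0571). The levels of TRIB3 and of CHAC1 overlapped between the groups.

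ASNS encodes asparagine synthetase, which makes asparagine from aspartate. It ran from 6.50 to 11.2 after treatment with a median of 8.50, and from 5.26 to 10.3 before treatment with a median of 7.34. The ranges overlapped over most of their width, and 16 tumours were higher, of which 7 by at least 2-fold. ASNS rose by 1.002 ± 0.29 (95% confidence interval 0.41 to 1.60, 2.003-fold, adjusted p = 0.0389). The SD of its change over the tumours was 1.46, the 24th largest of 15115 genes. A second probe set was also called (0.93 ± 0.26, adjusted p = 0.0347) and the other one was not (0.64 ± 0.25, adjusted p = 0.131). ASNS no longer passed when tumour 1, 3, 10, 12, 16, 18, 20 or 21 was left out (8 of 21 such fits, largest adjusted p = 0.0747).

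The rises of ASNS were steep in single tumours. In tumour 3 it was 9.66 after treatment and 5.26 before, a 21.04-fold difference. In tumour 1 it was 11.2 after and 6.90 before, 19.9-fold. The changes of tumours 10, 16 and 12 were 2.75, 2.36 and 2.24, and those of tumours 21 and 18 were 1.75 and 1.50. These 7 tumours had levels between 5.26 and 7.03 before treatment, all under the median of 7.34, and of the other 14 tumours only tumour 9 (6.39) started as low. A change and its starting level share the array before treatment, so no correlation between them is given. The lowest change was −0.56, in tumour 19.

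PSAT1 and PHGDH encode enzymes of serine synthesis, and neither was called. PSAT1 ran from 5.31 to 10.8 after treatment with a median of 8.61, and from 6.30 to 10.6 before treatment with a median of 8.02. It moved in both directions, with 4 tumours at least 2-fold higher and 3 at least 2-fold lower, so that the mean of 0.42 ± 0.30 (95% confidence interval −0.19 to 1.04, adjusted p = 0.490) had an SD of 1.51 over the tumours, the 20th largest of 15115 genes. Its change reached 3.49 in tumour 3 and 3.38 in tumour 1, but was −2.25 in tumour 6 and −1.67 in tumour 9. PHGDH ran from 6.83 to 10.95 after treatment with a median of 7.93, and from 6.81 to 11.4 before treatment with a median of 7.84. It was lower in 14 tumours and higher in 7, with a mean change of 0.12 ± 0.20 (95% confidence interval −0.29 to 0.52, adjusted p = 0.822). That mean was above 0 through tumours 1 (2.78), 3 (2.02) and 10 (1.46), and without tumour 1 it was −0.017. The other 2 probe sets of PSAT1 and the other 4 of PHGDH were not called.

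**Figure D2:**
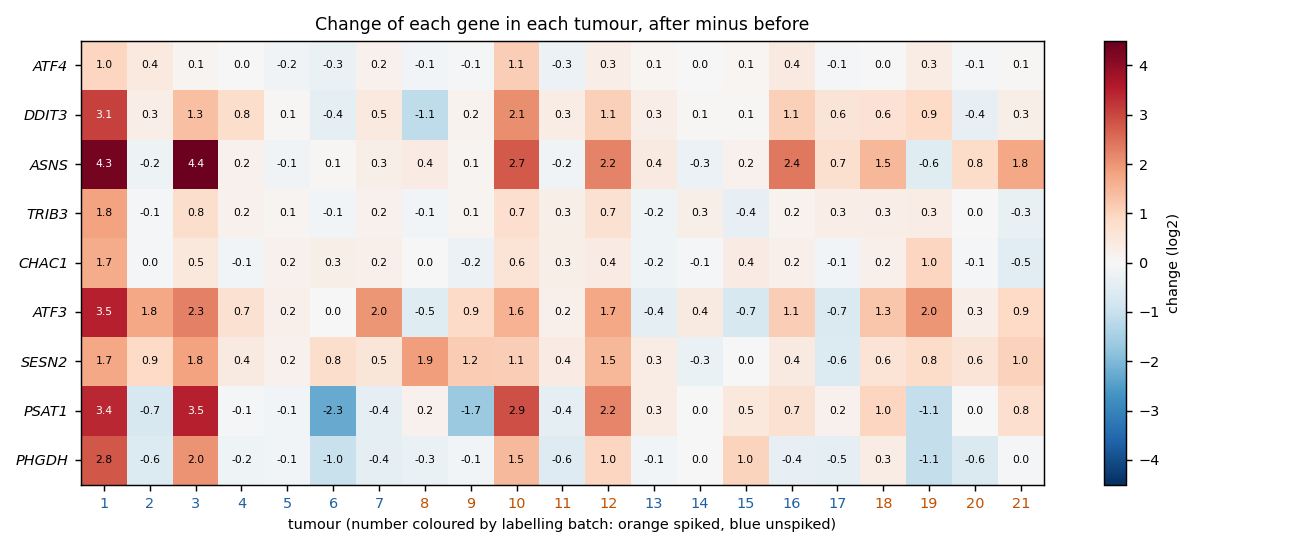
Change of each branch gene in each tumour (log2, after minus before), with tumour numbers coloured by batch (spiked or unspiked). Tumours 1, 10, 3 and 12 had 5 to 8 members at least 2-fold higher, and 9 tumours had none.

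Counted by tumour, 8 of the 9 members were at least 2-fold higher after treatment in tumour 1, 7 in tumour 10, 6 in tumour 3 and 5 in tumour 12. In the remaining tumours the count was 3 or lower, and in 9 tumours it was 0. The share of all genes at least 2-fold higher in the same tumour was not counted. These counts therefore do not set the branch apart from the rest of the array. All 9 members were higher in tumours 1, 3, 10, 12 and 18. Members at least 2-fold lower occurred in 4 tumours, with PSAT1 and PHGDH in tumours 6 and 19, DDIT3 in tumour 8 and PSAT1 in tumour 9. In tumour 19 ATF3 was 6.34 after treatment and 4.34 before it, while PSAT1 and PHGDH were 1.06 and 1.08 lower, so the regulators and the enzymes did not move together there.

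Both the spiked and the unspiked batch had tumours with many and tumours with no members at least 2-fold higher. In the spiked batch the mean change of SESN2 was 1.01, higher in 9 of 9 tumours (exact two-sided sign-flip test, p = 0.00391). In the unspiked batch it was 0.52, higher in 10 of 12 (permutation of signs, exact, p = 0.0269). The difference between the batches was 0.50 ± 0.26 and did not pass (adjusted p = 0.718), and no other member had a lower adjusted p for it. ATF3 changed by 0.93 in the spiked batch (8 of 9 higher, exact p = 0.0195) and by 0.84 in the unspiked batch (8 of 12, exact p = 0.0498). ASNS changed by 0.98 in the spiked batch (7 of 9, exact p = 0.043) and by 1.02 in the unspiked batch (9 of 12, exact p = 0.0337). DDIT3 changed by 0.44 in the spiked batch (7 of 9, exact p = 0.188) and by 0.64 in the unspiked batch (11 of 12, exact p = 0.0083). The other 5 members had exact p-values above 0.05 in both batches. Fitted across all probe sets in the spiked batch alone, 2 of 9 members rose, ATF3 and SESN2, where 1.49% of all genes did. In the unspiked batch alone no probe set was called by limma (4989 had an unadjusted p under 0.05).

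The rest of the pathway was read from 6 gene lists with 55 further measured genes. These lists too were chosen with earlier results of these data known. Of these 10 rose and none fell, where 4.02% of all genes rose and 3.13% fell. The mean change was above 0 for 49 of 55 (89.1%), while 53.1% of all genes had one above 0. The median change of the 55 was 0.15. Without the 5 tumours of changed control contrast 2 of the 55 rose, with 686 probe sets called. In the spiked or the unspiked batch alone 0 did (limma, with 1293 probe sets called in the spiked batch). The 10 rises were spread over 5 of the 6 lists. The counts per list below are small, and the share of all genes that rose (4.02%) stands beside each of them.

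Upstream of ATF4, the 14 measured eIF2 kinases, eIF2 subunits and phosphatase genes had a median change of 0.10, and 1 rose. This was PPP1R15A, which encodes GADD34, the subunit that brings a phosphatase to eIF2 and so ends the response (0.89 ± 0.21, adjusted p = 0.0125, 18 tumours higher). Among 3 related bZIP and partner factors none was called, and NUPR1 (0.13 ± 0.08, adjusted p = 0.442) and BATF2 (−0.04 ± 0.05, adjusted p = 0.723) had the smallest p-values. Among 8 other ATF4 targets 1 rose, ERO1A, the oxidase that forms disulphide bonds in the endoplasmic reticulum (0.95 ± 0.23, adjusted p = 0.0151). The median of those 8 genes was 0.08.

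Of 9 amino acid transporters 3 rose. SLC1A5, which carries glutamine, rose by 0.76 ± 0.15 (adjusted p = 0.0049, 17 tumours higher). SLC7A1, a carrier of arginine and lysine, rose by 0.30 ± 0.08 (adjusted p = 0.0250), and SLC7A5, a carrier of leucine and other large amino acids, by 0.25 ± 0.07 (adjusted p = 0.0271). The call on SLC7A5 was lost without tumour 10 or 16 (largest adjusted p = 0.0520). SLC7A11, the cystine carrier, changed by 0.62 ± 0.24 and was not called (adjusted p = 0.136). The mean change was above 0 for 6 of the 9 transporters, with a median of 0.17. The lowest was that of SLC38A2 (−0.17 ± 0.15, adjusted p = 0.592, 14 tumours lower).

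Of 8 further genes of serine, one-carbon and amino acid synthesis 3 rose. PSPH, which completes serine synthesis after PHGDH and PSAT1, rose by 0.61 ± 0.10 (adjusted p = 0.0015, 19 tumours higher). The mitochondrial one-carbon enzymes ALDH1L2 (0.68 ± 0.18, adjusted p = 0.0227) and SHMT2 (0.35 ± 0.08, adjusted p = 0.0143) rose as well. MTHFD2, of the same mitochondrial pathway, changed by 0.53 ± 0.24 and was not called (adjusted p = 0.215).

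Of 13 tRNA charging and export genes 2 rose, the seryl and threonyl tRNA synthetases SARS1 (0.23 ± 0.07, adjusted p = 0.0479) and TARS1 (0.30 ± 0.08, adjusted p = 0.0348). The call on TARS1 was lost without tumour 1, 2, 3, 10, 12, 13, 16, 20 or 21 (largest adjusted p = 0.0677). That on SARS1 was lost in 15 of the 21 fits without 1 tumour (largest adjusted p = 0.0922), and held without tumour 5, 6, 8, 9, 13 or 15.

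The endoplasmic reticulum chaperones and unfolded protein response genes, which answer misfolded protein there and share the kinase PERK with the ATF4 branch, had a median change of 0.40 over 18 genes, and 4 rose. They were EDEM1, which directs misfolded glycoproteins to degradation (1.16 ± 0.28, adjusted p = 0.0143), PDIA4, a disulphide isomerase (0.69 ± 0.18, adjusted p = 0.0228), DNAJC3, an inhibitor of eIF2 kinases (0.68 ± 0.18, adjusted p = 0.0257), and the chaperone HSPA5.

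**Figure D3:**
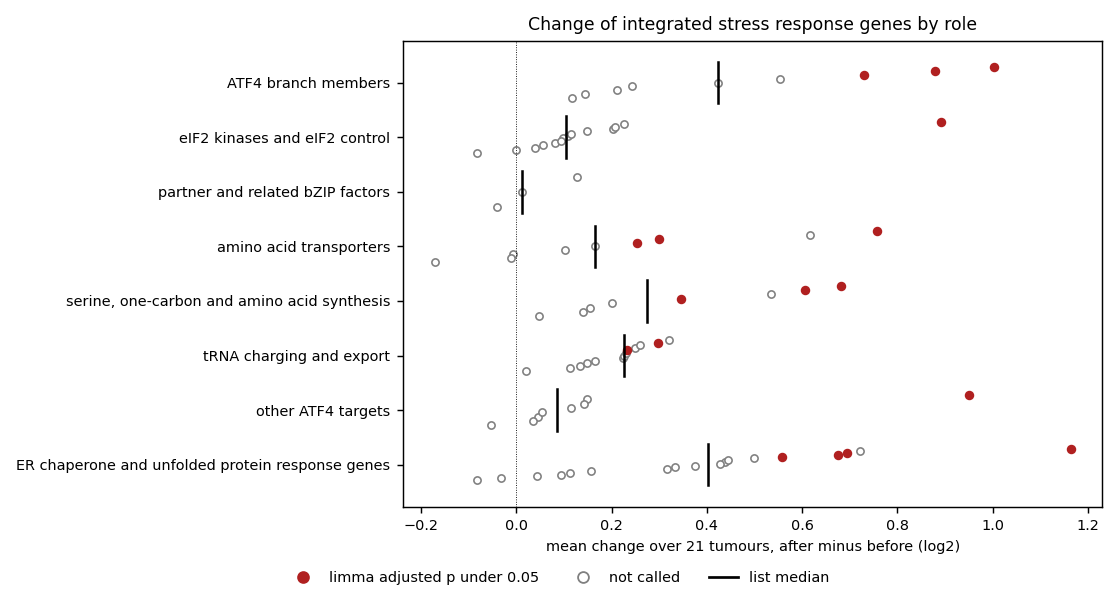
Mean change over 21 tumours (log2, after minus before) of each measured gene of the branch and of 7 related lists, with a bar at each list's median. Filled points are genes with a limma adjusted p under 0.05, and all of them lie above 0.

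Whether the members moved together was read from the change of ASNS. That change fell into 2 clusters by a mixture model (Bayesian information criterion −73.371 for 2 clusters and −80.452 for 1, where the higher value is the better fit), of 7 tumours between 1.50 and 4.40 and 14 tumours between −0.56 and 0.81. No correlation is therefore given over all 21 tumours, and 8 relations were computed within each cluster, a step chosen after the values were seen. The changes of 2 genes in a tumour come from the same pair of arrays, so array quality is shared between them.

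Among the 7 tumours with large ASNS rises, all 8 other members had a positive r. The closest were the serine synthesis genes, PSAT1 with r = 0.869 (exact permutation p = 0.00794, rho = 0.75, p = 0.0663) and PHGDH with r = 0.862 (exact permutation p = 0.0143, rho = 0.714, p = 0.0881). ATF3 followed (r = 0.853, exact permutation p = 0.0111) and then TRIB3 (r = 0.779, exact permutation p = 0.0292). ATF4 itself had the lowest r (0.420, exact permutation p = 0.325). Among the other 14 tumours PSAT1 had r = 0.391 (permutation p = 0.166, rho = 0.552, p = 0.0427), and 6 of the 8 members had a negative r. ATF3 was one of them (r = −0.537, permutation p = 0.0494, rho = −0.512, p = 0.0645). CHAC1 was another (r = −0.555, permutation p = 0.0392, rho = −0.376, p = 0.186). Among the 7 tumours CHAC1 had r = 0.733 (exact permutation p = 0.0365), and rho was 0.714 (p = 0.0881) for ATF3 and for CHAC1. All 6 members with a negative r thus had opposite signs of r in the clusters. The share of all genes with a positive or a negative r in each cluster was not counted. These counts therefore do not set the members apart from the rest of the array. Within the 7 tumours, ASNS changed by 4.31 and 4.40 in tumours 1 and 3 and by 2.75 or less in the others. The r without tumours 1 and 3 was not computed in that cluster. The p-values of these relations were not adjusted for their number. The difference between the clusters was not tested.

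**Figure D4:**
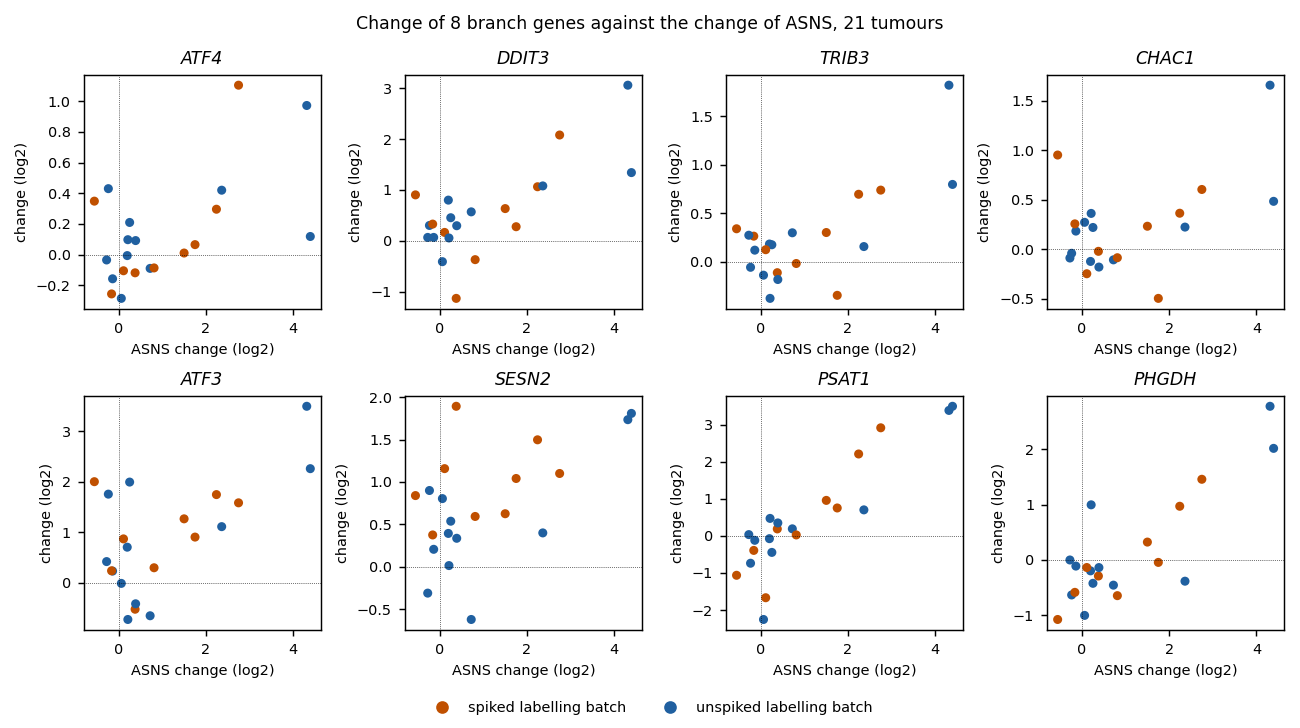
Change of 8 branch genes against the change of ASNS (log2, after minus before), 1 point per tumour. The mixture model placed the 7 tumours with an ASNS change of 1.50 or more in 1 cluster and the other 14, up to 0.81, in another. The widest step lay inside the first cluster, between tumour 10 (2.75) and tumours 1 and 3 (4.31 and 4.40). Among the 7 tumours PSAT1 and PHGDH lie along a rising line.

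A limma fit of every gene's change on the ASNS change over all 21 tumours called a positive slope for 4 of the 8 other members, where 1.91% of 15114 genes had one. PSAT1 changed by 0.92 ± 0.098 for each unit of ASNS (adjusted p = 1.39e-05), and its pattern was the most like ASNS of all 15114 genes. PHGDH had a slope of 0.56 ± 0.081 (adjusted p = 0.000716, rank 11), DDIT3 of 0.45 ± 0.087 (adjusted p = 0.00705, rank 93) and TRIB3 of 0.23 ± 0.052 (adjusted p = 0.0173, rank 139). ATF3, ATF4, SESN2 and CHAC1 were not called. These slopes span both clusters and so include the difference between them. Within the 14 tumours of small ASNS change r was negative for DDIT3 (−0.323, permutation p = 0.26) and TRIB3 (−0.309, permutation p = 0.282). For PHGDH it was 0.169 (permutation p = 0.565). A positive relation of DDIT3 and TRIB3 was thus not seen there. Those tumours span only −0.56 to 0.81 of ASNS change, a range too narrow to decide whether the slopes hold. The relation rests in part on tumours 1 and 3, since without them 1 member was called and 33 probe sets in place of 906. The 5 other genes with the closest pattern were SNRPA1, a splicing protein gene (slope 0.26 ± 0.033), MTHFD2 (0.73 ± 0.085, adjusted p = 6.28e-05), G2E3 (0.32 ± 0.043), SARS1 (0.19 ± 0.030) and MAPK6 (0.39 ± 0.054).

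In the same fit 11 of 18 endoplasmic reticulum chaperone genes had a called positive slope, HSPA5 and HSP90B1 among them, and 5 of 13 tRNA charging genes did, AARS1, SARS1, TARS1, WARS1 and YARS1. Called slopes were also found for 2 of 9 transporters (SLC7A11 with 0.55 and SLC1A5 with 0.38), for 2 of 8 serine and one-carbon genes (MTHFD2 and ALDH1L2), for EIF2S1 among 14 eIF2 genes and for ERO1A among 8 other targets. No gene of these lists had a called negative slope.

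Before treatment the levels of ASNS formed a single cluster, and its serine synthesis partners already varied with it. PSAT1 had r = 0.749 with ASNS over 21 tumours (permutation p = 0.00016, rho = 0.718, p = 0.00032). Its r was 0.646 without the 2 tumours farthest from the median of ASNS. In the spiked batch it was 0.908 (permutation p = 0.00168, n = 9) and in the unspiked batch 0.659 (permutation p = 0.0198, n = 12). PHGDH had r = 0.675 (permutation p = 0.00051, rho = 0.732), 0.692 without those 2 tumours, 0.933 in the spiked batch and 0.598 in the unspiked one. ATF4 had r = 0.627 (permutation p = 0.00211, rho = 0.618) and 0.572 without them. Its r was 0.687 in the unspiked batch (permutation p = 0.0134), but 0.352 in the spiked batch (permutation p = 0.354). Over all 21 tumours the other 5 members had r between −0.0566 for CHAC1 and 0.373 for DDIT3, with permutation p-values above 0.05 (rho for DDIT3 was 0.438, p = 0.0479). For DDIT3 the batches gave different values. In the spiked batch r was 0.734 (permutation p = 0.0224, rho = 0.783, p = 0.0166, n = 9). In the unspiked batch it was 0.210 (permutation p = 0.509, n = 12), and without the 2 farthest tumours 0.173. TRIB3, ATF3, SESN2 and CHAC1 had permutation p-values above 0.05 in both batches. Differences between these correlations were not tested.

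Adjusted over all probe sets, no member passed before treatment. The limma adjusted p was 0.0751 for PSAT1, 0.157 for PHGDH and 0.232 for ATF4, and 8 of 42923 probe sets (0.0186%) were called, none of them the probe set that stands for a gene here. The 5 genes with the highest r before treatment were PSRC1 (0.785), MTHFD2 (0.780), OSTF1 (0.771), PDCD10 (0.765) and TPX2 (0.763). MTHFD2 was the gene found in both lists of 5, before treatment and in the change.

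**Figure D5:**
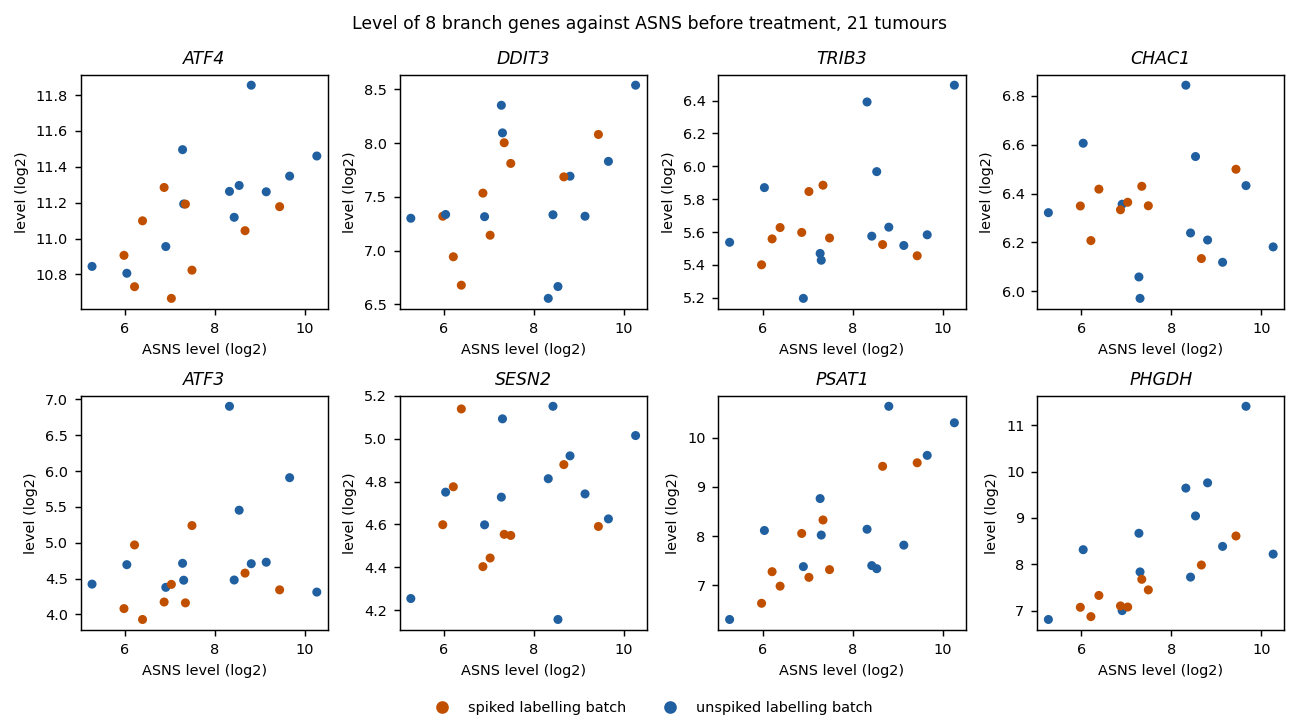
Level of 8 branch genes against the level of ASNS before treatment (log2), 1 point per tumour, coloured by batch (spiked or unspiked). PSAT1 and PHGDH lie along rising bands, whereas CHAC1 has r = −0.0566.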

How the data were processed

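RNA of 42 tumour samples was hybridised to Affymetrix canine arrays. The deposited values are log2 levels that the authors made with RMA in Affymetrix Expression Console, per the submitters' processing notes; versions are not given in the sources used here. Of 43035 rows, 111 controls were left out, and 29254 of 42924 probe sets have 1 gene symbol (27680 were matched to a current gene table, which changed no symbol). The identifier of CHAC1 was not matched, and probe sets ending in _s_at can bind related transcripts. Per gene the probe set with the highest mean was used.

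Arrays were paired by the tumour code in their titles. After removal of group means each of the 21 arrays after treatment matched its own partner best among the arrays before treatment (lowest correlation 0.438). limma 3.58.1 (R 4.3.3) was fitted with the tumour as a block, with eBayes and Benjamini-Hochberg adjustment at 0.05, two-sided, and tested on simulated data. Batch values used all sign flips, and correlations all permutations or 100000. Clusters came from mclust 6.1.1. Other steps used SciPy 1.17.1 and NumPy 2.4.6 with pandas 2.3.3 in Python 3.11.15, and figures Matplotlib 3.10.9.

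The members and gene lists were chosen with earlier results of these data known. The text names all members and every called gene of a pathway list (or the 2 with the smallest p). It also names the 3 called endoplasmic reticulum genes with the largest change and the 5 genes most like ASNS. HSPA5, SLC7A11, SLC38A2, MTHFD2 and the other genes with called slopes were named after their values were seen. Alternatives were no block, a random block, filters, trend and robust shrinkage, array weights, renewed normalisation, the 3′ to 5′ control contrast, the Wilcoxon test, each batch and leaving out tumours. ATF5, CEBPB, CEBPG, GPT2, GARS, TNFRSF10B and CRELD2, the markers KRT5, KRT14, S100A12 and CKM, and promoter sequences were not analysed here.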

Additional observations from a re-analysis of the deposited data

How the results depend on the processing

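The direction of change held for 8 of the 9 members under every alternative run. PHGDH reversed with array weights (−0.0137), in the spiked batch (−0.0022) and without tumour 1, with a range of −0.017 to 0.18 over the fits without 1 tumour. SESN2 lost its call in the unspiked batch alone (adjusted p = 0.287). ATF3 lost it there (0.324), with no block (0.198), with Wilcoxon (0.0510) and without the 5 tumours whose 3′ to 5′ control contrast changed by over 0.5 in either direction (0.0568). ASNS lost it in 8 alternatives, with limma adjusted p-values up to 0.635. DDIT3 gained a call with a random block (0.0448) and with a filter at the median level (0.0428), which leaves 7 of 9 members. That filter dropped ATF3 and SESN2, which lie below the median level, so it could not test their calls.

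The fit with no replicate block, which ignores the pairing, called 30 probe sets in place of 2558, 1 member in place of 3 and 0 of the 55 other pathway genes in place of 10. The spiked batch alone called 1293 probe sets and 0 of the 55 genes, and the unspiked batch 0 probe sets, 0 members and 0 of the 55. Without the 5 tumours with a changed contrast 686 probe sets, 1 member and 2 of the 55 were called, and without tumours 13 and 15 3861 probe sets. Wilcoxon called 1 member. Leaving out 1 tumour gave 1816 to 3171 probe sets, 2 to 4 members and 7 to 15 of the 55. The batch difference was called for 1 probe set, and for 0 with the contrast as a covariate. The slope on the ASNS change was called for 906 probe sets and 4 members, for 33 and 1 without tumours 1 and 3, for 77 and 2 in the spiked batch, for 50 and 2 in the unspiked batch, and for 1751 probe sets without tumours 13 and 15. Before treatment 8 probe sets were called, 13 with the batch as a covariate, 2 in the spiked batch and 1 in the unspiked one. The causes of these differences were not tested. The batch fits also held fewer tumours (9 spiked, 12 unspiked), and the part of that was not tested either.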
